A study of Homo sapiens with 2 samples.

Results

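In the human B-cell line GM12878, nanopore reads fell on 168 pseudogenes of cytosolic ribosomal protein genes. They were chosen by symbol and by read count from the deposited table: the name of a ribosomal protein gene, then P and a number, with the acidic ribosomal protein genes RPLP0, RPLP1 and RPLP2 themselves left out, and with at least 3 reads summed over all transcript models and both libraries. The rule found 169 of the 16645 annotated genes with a read. One of them was not a pseudogene. RPS19BP1, on chromosome 22 from 39529093 to 39532855 (minus strand, GRCh38), is a protein-coding gene for a binding protein of RPS19 and carries its P only by spelling. It had 103 reads in replicate 1 and 104 in replicate 2, of which 185 of 207 lay in models of 2 or more exons, and it was left out of every value that follows. Since the members were selected on their summed reads, those totals are a description. Members just inside it included RPL12P2 with 1 and 2 reads, RPL13AP6 with 2 and 1 and RPL13P2 with 2 and 1 in replicates 1 and 2. Just outside it were RPL12P1 with 1 and 1 reads, RPL12P32 with 0 and 2 and RPL21P1 with 1 and 1. In all 16 members stood at 3 reads, and 28 pseudogenes of the same name pattern stood at 2 reads and 56 at 1.

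GM12878 is an established line of B cells transformed by Epstein-Barr virus. Both libraries were made from it without a stated treatment, and they form 1 group of 2 replicates. Per the labels' protocols, RNA was column-extracted and depleted, and native RNA strands were sequenced through nanopores (kit SQK-RNA002, flow cell FLO-MIN106D) with a reverse transcription step against secondary structure. The labels do not say that the replicates came from separate cultures. Every p-value here compares only these 2 sets of reads, allows for counting error alone and measures no spread between cultures. Replicate 1 held 1360368 reads and replicate 2 held 1510998, so that 3 reads corresponded to 2.21 and 1.99 reads per 1000000 library reads (CPM). All 7 B-cell marker genes had at least 10 reads in each library, with a summed level of 9089 and 9443 CPM. Of 6 markers of other lineages, none had 10 reads in each library, their summed level was 6.62 and 13.9 CPM, and ALB, HBG1 and GATA1 were at 0. The 2 libraries were not copies of each other, with a chi-square per gene of 3.27 over 10634 genes.

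Ribosomal proteins build the large (RPL) and small (RPS) subunits of the cytosolic ribosome, and their messenger RNAs are among the most abundant in dividing cells. Most of their pseudogenes are processed pseudogenes: intronless copies that arose when a spliced messenger RNA was reverse transcribed by retrotransposon enzymes and inserted elsewhere in the genome. The intron-containing gene that each copy came from is called its parent, and a copy starts out with the same letters as the spliced messenger RNA of the parent. A read of a young copy and a read of the parent messenger RNA therefore differ only at the few bases where the copy has changed, and nanopore reads carry base errors of their own. How reads that fit both places were assigned is not given in the sources used here. Every count of a pseudogene below is the number of reads the authors' table assigned to it, and the split between a near-identical copy and its parent is uncertain.

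The sequences of the leading families show how little separates some copies from their parents. They are shown because the copies of these genes together took more reads than the genes themselves. All are from the GENCODE release 29 transcripts, 5′ to 3′, positions count from the A of the start codon of the parent, and capitals mark bases at which the copy differs from the parent. The whole coding part of RPS28 (positions 1 to 210), a small subunit protein, was identical in RPS28P7, on chromosome 11 from 82689559 to 82689768 (plus strand):
RPS28: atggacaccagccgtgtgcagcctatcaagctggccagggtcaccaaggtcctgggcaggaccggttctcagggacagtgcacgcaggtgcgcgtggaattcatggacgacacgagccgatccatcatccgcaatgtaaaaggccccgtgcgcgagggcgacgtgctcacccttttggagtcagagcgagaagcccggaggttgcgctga
RPS28P7: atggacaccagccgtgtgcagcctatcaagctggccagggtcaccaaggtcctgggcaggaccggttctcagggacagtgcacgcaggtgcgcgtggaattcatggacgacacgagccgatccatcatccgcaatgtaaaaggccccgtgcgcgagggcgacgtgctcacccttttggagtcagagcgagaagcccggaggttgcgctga

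RPL41 encodes one of the smallest proteins of the ribosome. Its whole coding part (positions 1 to 78) was identical in RPL41P1, on chromosome 20 from 21755270 to 21755350 (plus strand), and in RPL41P5, on chromosome 12 from 93083598 to 93083675 (minus strand):
RPL41: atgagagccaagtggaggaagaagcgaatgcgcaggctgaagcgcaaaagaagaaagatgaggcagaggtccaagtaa
RPL41P1: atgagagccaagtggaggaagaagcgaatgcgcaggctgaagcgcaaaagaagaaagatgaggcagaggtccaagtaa
RPL41P5: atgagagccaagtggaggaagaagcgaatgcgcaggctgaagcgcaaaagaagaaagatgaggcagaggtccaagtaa

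RPL21 encodes a large subunit protein. Its copy RPL21P16, on chromosome 10 from 120354701 to 120355183 (minus strand), was identical to it over all 483 annotated bases. Over the same stretch RPL21P75, on chromosome 7 from 20002765 to 20003247 (plus strand), differed at 1 base (G397A, parent base first). RPL21P28, on chromosome 1 from 212051524 to 212052006 (minus strand), differed there at 3 (G6A, T134C and C294T). Positions 291 to 410 hold 1 of these bases in RPL21P75 and 1 in RPL21P28:
RPL21: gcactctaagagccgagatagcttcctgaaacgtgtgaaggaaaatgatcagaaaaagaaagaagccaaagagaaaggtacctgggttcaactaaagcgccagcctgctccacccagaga
RPL21P16: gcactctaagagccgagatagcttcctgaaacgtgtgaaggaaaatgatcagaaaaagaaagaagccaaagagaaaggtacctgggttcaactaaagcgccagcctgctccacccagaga
RPL21P75: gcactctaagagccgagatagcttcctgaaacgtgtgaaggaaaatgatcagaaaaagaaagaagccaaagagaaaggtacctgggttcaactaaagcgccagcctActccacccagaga
RPL21P28: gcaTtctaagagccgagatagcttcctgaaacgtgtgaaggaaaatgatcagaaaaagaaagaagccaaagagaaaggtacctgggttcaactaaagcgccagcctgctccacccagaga

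RPL9 is a further large subunit gene. Over the 579 coding bases of RPL9, its copy RPL9P9, on chromosome 15 from 82372196 to 82372912 (minus strand), differed only at T366C. Over the same bases RPL9P7, on chromosome X from 23836742 to 23837321 (minus strand), differed at C351T and T366C. Both copies thus share 1 changed base in positions 331 to 390, and all of these changes were synonymous:
RPL9: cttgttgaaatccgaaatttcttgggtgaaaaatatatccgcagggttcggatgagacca
RPL9P9: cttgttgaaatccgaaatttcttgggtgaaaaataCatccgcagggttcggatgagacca
RPL9P7: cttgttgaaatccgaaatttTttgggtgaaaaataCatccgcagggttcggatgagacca

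RPS26 encodes a small subunit protein at the messenger RNA exit channel. It had the most members of any parent, 9 of its 30 annotated pseudogenes. The 4 copies shown, each with an open frame, are set beside the parent at positions 81 to 200, and no 2 of them share a changed base in this stretch. RPS26P3 is on chromosome 9 from 9090898 to 9091245 (plus strand), RPS26P47 on chromosome 13 from 100539901 to 100540248 (minus strand), RPS26P15 on chromosome 1 from 58056133 to 58056480 (minus strand) and RPS26P8 on chromosome 17 from 45608571 to 45608918 (plus strand):
RPS26: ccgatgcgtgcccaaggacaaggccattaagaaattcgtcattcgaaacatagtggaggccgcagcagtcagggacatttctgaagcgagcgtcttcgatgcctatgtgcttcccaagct
RPS26P3: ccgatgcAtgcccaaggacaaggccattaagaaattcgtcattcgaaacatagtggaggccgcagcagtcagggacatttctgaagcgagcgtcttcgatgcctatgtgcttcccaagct
RPS26P47: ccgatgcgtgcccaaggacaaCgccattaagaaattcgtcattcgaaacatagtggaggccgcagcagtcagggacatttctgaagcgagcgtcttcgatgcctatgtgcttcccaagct
RPS26P15: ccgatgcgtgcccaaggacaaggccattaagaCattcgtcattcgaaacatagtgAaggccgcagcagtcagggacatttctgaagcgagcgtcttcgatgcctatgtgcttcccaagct
RPS26P8: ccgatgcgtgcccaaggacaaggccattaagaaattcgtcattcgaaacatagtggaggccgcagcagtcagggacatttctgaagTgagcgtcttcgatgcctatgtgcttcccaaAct

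The members together took 38396 reads in replicate 1 and 49879 in replicate 2. That was 2.82% (95% Wilson interval 2.79 to 2.85) and 3.30% (3.27 to 3.33) of all reads, a mean of 3.06% ± 0.338 (SD, n = 2). Intervals cover counting error only. The 59 parents took 18.02% and 18.62% of the reads of the same libraries. Of the members, 152 were annotated as processed, 13 as transcribed processed and 3 as transcribed unprocessed pseudogenes, on 23 chromosomes. The 97 members of large subunit genes held 73.1% of the member reads (64492), and the 71 of small subunit genes held 23783 reads.

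Reads were concentrated on few members. The first 10 held 71.7% of the 88275 member reads and the first 20 held 86.5%, while the median member had 19.5 reads and 62 members had 3 to 9. RPL9P9 led with 4531 and 5863 reads (3605 ± 389 CPM; SD, n = 2, here and for the CPM values that follow). That lead rested on a genomic model described below: by reads in known models RPL9P9 had 2882 and 1555 and ranked 8th, behind RPL21P16 with 4186 and 4648 and RPL13AP5 with 3714 and 4032. Over all models RPL21P16 had 4191 and 4652 reads (3080 ± 1.43 CPM), the closest repeat between the libraries among the leading members. RPL13AP5, a copy of the large subunit gene RPL13A whose product also takes part in a translational silencing complex, had 3717 and 4034 reads (2701 ± 44.3 CPM). Below these 3, RPS28P7 had 3059 and 3821 reads (2389 ± 198 CPM) and RPL7P9 had 2804 and 3460 (2176 ± 162 CPM). Each library of RPL7P9 lay below the same library of RPS28P7. RPSAP58, a copy of the gene of the ribosomal protein SA, which is also known as the laminin receptor, had 2294 and 2689 reads (1733 ± 66.0 CPM). RPL9P7 had 2017 and 2721 (1642 ± 225 CPM), RPL23AP42 had 1757 and 2122 (1348 ± 79.8 CPM) and RPS7P1 had 1188 and 1482 (927 ± 76.0 CPM). The other 10 of the first 20 ranged from 342 CPM (RPL26P19) to 724 CPM (RPS27AP16, a copy of the gene that makes a ubiquitin-ribosomal protein fusion). They were RPS27AP16, RPS3AP6, RPL10P16, RPL21P75, RPL12P16, RPL41P1, RPL10P9, RPS2P46, RPL6P27 and RPL26P19. The first 20 came from 17 parents, 14 were copies of large and 6 of small subunit genes, and 17 of the 20 had a higher CPM in replicate 2.

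A read in each library was found for 160 of the 168 members (95.2%), beside 97.2% of the 13311 annotated genes with at least 3 reads. The 8 members read in 1 library only were all read in replicate 2, the deeper library, with at most 9 reads (RPSAP12, at 0 and 9). Among the 62 members with 3 to 9 reads, 54 (87.1%) were read in both libraries. How many of all genes were read in replicate 2 only, or in both libraries at 3 to 9 reads, was not counted, so neither value has a background. A count of 0 in replicate 1 allows up to 2.21 CPM.

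In 6 families the pseudogenes took more reads than the parent. For RPL21 the parent had 172 and 224 reads and its 7 members 4821 and 5539, so the pseudogenes held 96.6% (96.0 to 97.0) and 96.1% (95.6 to 96.6) of the family. For RPL9 the parent had 295 and 503 reads and RPL9P9 with RPL9P7 had 6548 and 8584, a share of 95.7% (95.2 to 96.1) and 94.5% (94.0 to 94.9). For RPS28 the parent had 369 and 648 reads and RPS28P7 alone had the values above, a share of 89.2% (88.2 to 90.2) and 85.5% (84.4 to 86.5). In these 3 families each library gave the copy several times the reads of the gene. RPS26 had few reads in all: 51 and 66 for the parent and 186 and 233 for its members, a share of 78.5% (72.8 to 83.2) and 77.9% (72.9 to 82.3). RPL7, a large subunit gene, had 1842 and 2158 reads against 2991 and 3785 for 4 members, a share of 61.9% (60.5 to 63.2) and 63.7% (62.5 to 64.9). RPL41 had 544 and 737 reads against 688 and 812 for 3 members, a share of 55.8% (53.1 to 58.6) and 52.4% (49.9 to 54.9), so in replicate 2 the interval included even shares.

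**Figure D1:**
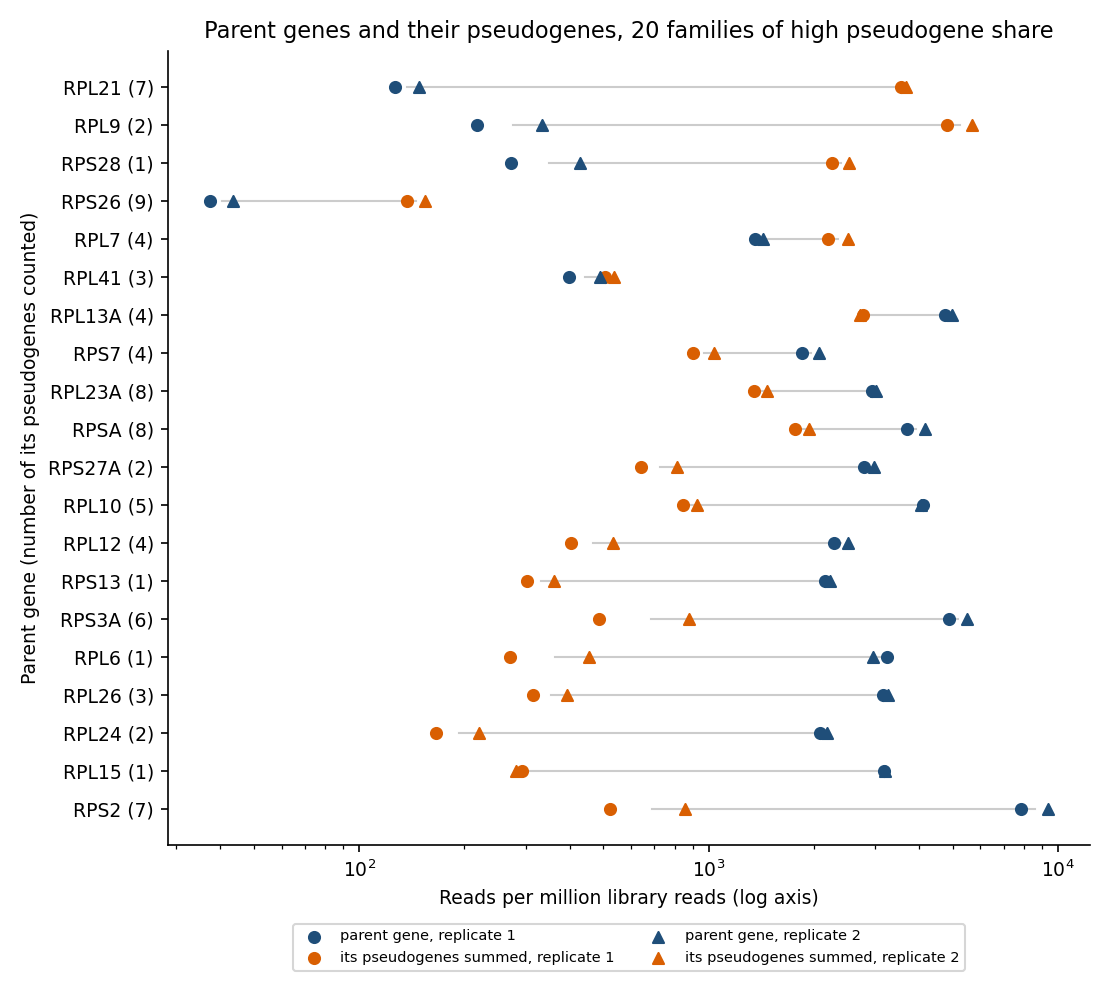
CPM (log axis) of each parent gene (blue) and of its pseudogenes summed (orange) in replicate 1 (circles) and replicate 2 (triangles), for 20 families with a high pseudogene share. The orange symbols lie to the right of the blue ones in the upper 6 families, from RPL21 to RPL41, and to the left in the other families drawn.

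Those 6 families held 46.5% of all member reads. Their parents had between 40.6 CPM (RPS26) and 1391 CPM (RPL7), whereas the parents of the other 53 families had 1135 to 8599 CPM with a median of 3060. These 6 families were picked for having fewer parent than pseudogene reads, so low parent counts follow in part from the pick. Why these parents had fewer reads was not tested. With the pseudogenes added, RPL9 reached 5522 CPM, RPL7 3743, RPL21 3742 and RPS28 2739, within the range of the other families, while RPL41 stayed at 965 and RPS26 at 186 CPM. A further 11 families had a pseudogene share between 10 and 50%. Among them were RPL13A at 36.9% and 35.2% and RPS7 at 32.7% and 33.4%. In 21 families the share was 1 to 10% and in 21 it was under 1%, with a median over the 59 families of 2.79%. Pooled over all families it was 13.5% (13.4 to 13.7) in replicate 1 and 15.1% (14.9 to 15.2) in replicate 2. The share was higher in replicate 2 in 47 families and lower in 12.

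In the RPL21, RPL41 and RPL7 families most reads went to 1 or a few copies, while the 6 RPL34 members had 15 to 59 reads each. Of the 7 RPL21 members, RPL21P16 had the counts above and RPL21P75 had 592 and 811 reads, while RPL21P28 had 29 and 49, RPL21P119 had 3 and 16 and the remaining 3 had 4 to 7 reads in all. The steps between RPL21P16, RPL21P75 and RPL21P28 were far larger than the spread between libraries. Over their 483 annotated bases these copies differ from the parent by 0, 1 and 3 bases. Bases beside the annotated copies were not compared. RPL41 also had unequal counts for copies whose coding parts are identical: RPL41P1 had 518 and 637 reads and RPL41P5 had 7 and 10. RPL41P2, on chromosome 15 from 28315651 to 28316059 (plus strand), with a longer annotated copy of 409 bases, had 163 and 165. The 4 RPL7 members were likewise unequal, with 2804 and 3460 reads for RPL7P9, 173 and 281 for RPL7P1, 8 and 23 for RPL7P23 and 6 and 21 for RPL7P32. In the RPS26 family the counts were more even: 72 and 60 reads for RPS26P3, 41 and 54 for RPS26P47, 29 and 48 for RPS26P15 and 20 and 37 for RPS26P6, with 3 to 19 reads in all for the other 5. The CPM of RPS26P15 overlapped over the libraries with that of RPS26P47 and with that of RPS26P6, and the order was not tested.

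Pseudogenes with reads were closer in sequence to their parents than those without. Each annotated pseudogene of the name pattern was aligned to the protein-coding transcripts of its parent, and identity is the share of matching bases over the aligned columns. GENCODE release 29 holds 1144 such pseudogenes, of which 892 had 0 reads. Median identity was 86.7% for those, 93.4% for the 84 with 1 or 2 reads and 96.7% for the 168 members. All 65 annotated pseudogenes at 97.5% identity or more had a read, and 64 of them were members, which held 94.99% of the member reads. The exception was RPL22P1, at 98.0% with 1 and 1 reads. At 99% or more there were 28 pseudogenes, all of them members, and these alone held 81.8% of the reads of all 1144 annotated pseudogenes (72340). Below 90% there were 646 annotated pseudogenes and 11 members, with 169 reads between them. The member with the lowest identity among those with at least 100 reads was RPS19P1 at 94.7% (35 and 77 reads), and all members with at least 1000 reads lay between 98.6 and 100%.

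**Figure D2:**
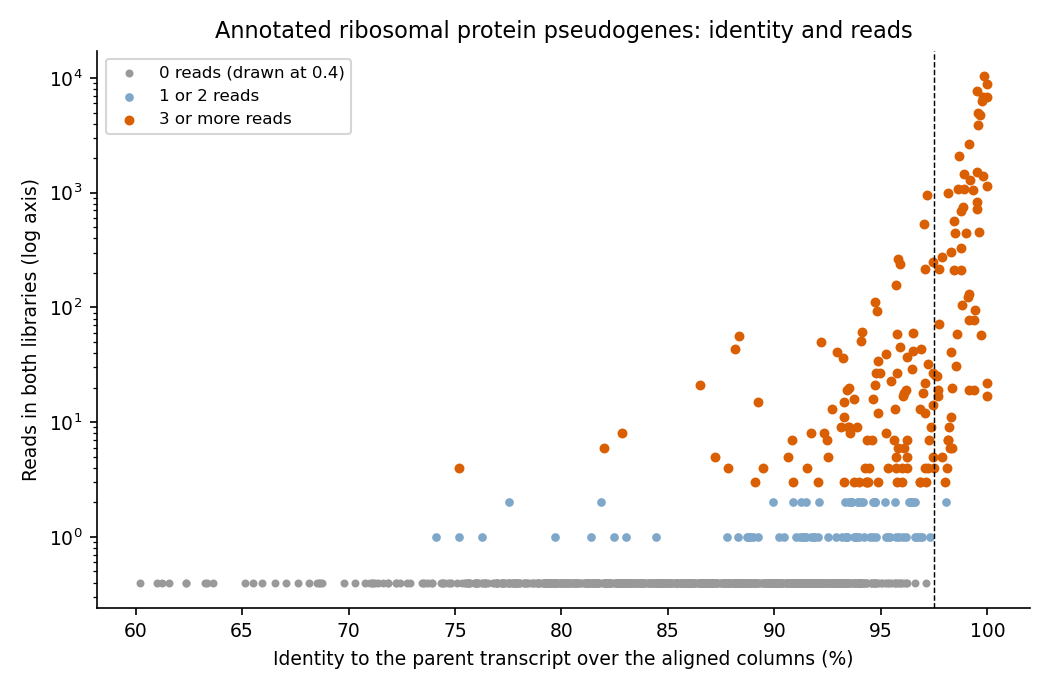
Reads summed over both libraries (log axis, pseudogenes with 0 reads drawn at 0.4) against identity to the parent transcript in percent, for the 1144 annotated pseudogenes. Grey points had 0 reads, blue points 1 or 2 and orange points 3 or more; no grey point lies right of the dashed line at 97.5%.

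Among the 168 members, Spearman's rank correlation of identity with reads was 0.60, and that of parent reads with member reads was -0.14. Both are across genes that share parents and libraries, and genes are not independent replicates. Pseudogenes of 100% identity were few: RPL21P16, RPS28P7, RPL41P1, RPL41P5 and RPL39P3, which copies the short large subunit gene RPL39. All 5 were members, but their summed reads ran from 17 (RPL41P5) and 22 (RPL39P3, 8 and 14 reads) to 8843 (RPL21P16). Members of equal identity over the aligned columns thus differed widely in reads. The stretches compared were of unlike length, from 78 bases (RPL41P5) to 483 (RPL21P16), and bases beside the annotated copies were not compared.

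Copies with more changed bases were also read. RPL37P23, on chromosome 19 from 52143043 to 52143336 (plus strand), copies RPL37, a large subunit gene, over its full coding part with 12 changed bases and an open frame. It is printed whole beside the parent as the member of lowest identity (95.9%) with an open frame among those with at least 100 reads:
RPL37: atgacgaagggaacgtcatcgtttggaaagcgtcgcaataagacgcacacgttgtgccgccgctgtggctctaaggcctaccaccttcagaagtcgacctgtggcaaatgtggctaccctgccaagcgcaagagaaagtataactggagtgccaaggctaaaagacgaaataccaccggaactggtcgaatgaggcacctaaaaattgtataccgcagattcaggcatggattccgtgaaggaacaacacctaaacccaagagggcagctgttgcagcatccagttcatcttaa
RPL37P23: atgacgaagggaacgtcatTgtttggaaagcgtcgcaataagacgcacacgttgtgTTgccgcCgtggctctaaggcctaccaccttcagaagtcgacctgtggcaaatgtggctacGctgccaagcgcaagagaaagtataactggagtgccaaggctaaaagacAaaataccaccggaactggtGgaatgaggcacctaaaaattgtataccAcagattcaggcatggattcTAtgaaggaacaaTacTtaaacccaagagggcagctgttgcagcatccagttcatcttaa
RPL37P23 had 116 and 122 reads and RPL37P2, at 95.8%, had 122 and 142. The 12 changes altered 11 of 98 codons, 10 of them to another meaning. With RPS19P1, RPL37AP1 (95.7%, 63 and 93 reads) and RPL24P8 (97.0%, 222 and 316 reads), these 5 had the lowest identity among members with at least 100 reads.

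The reading frame of the parent was open in 48 members, meaning that the full coding part aligned without a gap, kept the start and stop codons and held no earlier stop codon. These 48 were 70.6% of the 68 annotated pseudogenes with an open frame, and they held 68953 member reads (78.1%). A gap, or an annotation that did not cover the coding part in full, interrupted the frame in 106 members of 1032 such pseudogenes (16688 reads, 18.9%). A changed start, a changed stop or an early stop codon was found in 14 of 44 (2634 reads). Open frames went with high identity: the median identity was 98.9% for the 48 members and 91.4% for the 12 open pseudogenes with 0 reads. Within the 90 to 97.5% range of identity, 11 of 26 open pseudogenes were members, 8 of 32 with a changed frame and 74 of 375 with an interrupted one. In 8 of the 48 open members no codon changed its meaning (RPL9P9, RPL21P16, RPS28P7, RPL9P7, RPL41P1, RPL41P2, RPL39P3 and RPL41P5), and these 8 held 32377 reads. The table counts RNA strands, and whether any was translated was not measured.

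The frame was not open in 5 of the first 20. RPS27AP16 (868 and 1225 reads) and RPS2P46 (420 and 650 reads) were among those with an interrupted frame. RPL26P19, a copy of the large subunit gene RPL26 with an early stop at codon 45, had 418 and 569 reads.

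TALON, the program that made the table, places each read in a transcript model, and the model has a category. Known models match an annotated transcript, incomplete splice matches (ISM) hold part of its splice junctions, NIC and NNC models combine known splice sites in a new way or use new ones, and genomic models overlap a gene without matching its splicing. Known models held 95.4% (95.2 to 95.7) of member reads in replicate 1 and 91.1% (90.9 to 91.4) in replicate 2, against 66.4% and 59.1% of parent reads. The difference in percentage points was 30.5 ± 2.15 (SD, n = 2) for known models and -32.1 ± 5.10 for ISM models. ISM models held 0.0311% of member reads on average. A copy with no splice junction cannot give an incomplete splice match, so the categories of members and parents differ by construction. Models of 1 exon held 99.7% of member reads and 1.35% of parent reads, and 130 of the 168 members had reads in models of 1 exon only. Genomic models held 4.44% (4.24 to 4.65) and 8.79% (8.54 to 9.04) of member reads, 5.50 ± 2.52 points more than in parents. That excess rested on 1 model of RPL9P9: without it, genomic models held 0.163% and 0.182% of member reads, a difference from parents of -0.939 points. These differences were not tested, since the single group holds 2 libraries.

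**Figure D3:**
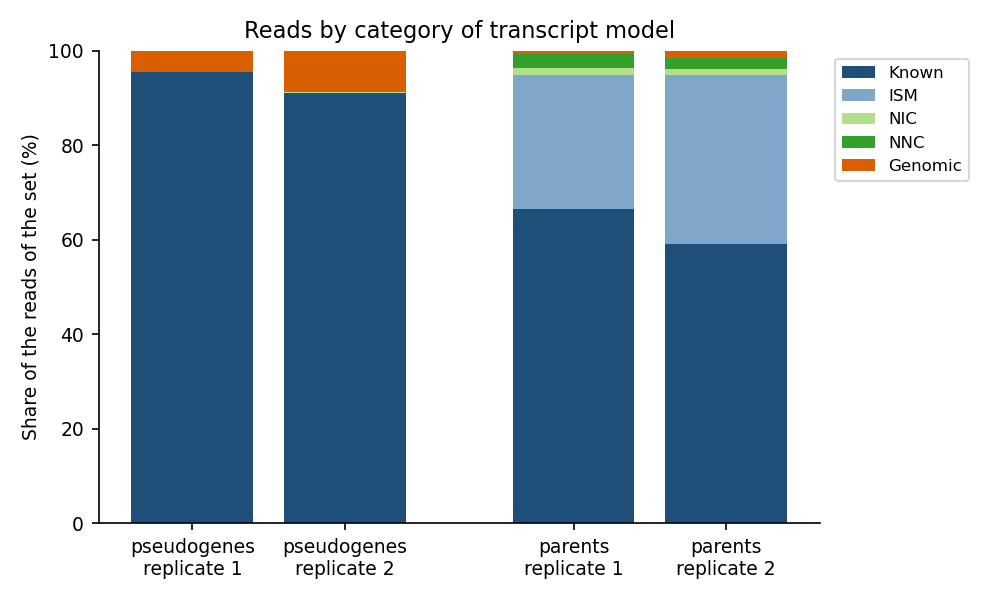
Share of reads (percent, from 0) in each category of transcript model, for the 168 pseudogenes and the 59 parents in replicates 1 and 2. Known models (dark blue) fill 91.1% or more of the pseudogene bars, and incomplete splice matches (light blue) appear as a visible band in the parent bars only.

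RPL9P9 was read in 2 main models whose order differed between the libraries. Its annotated transcript RPL9P9-202, of 579 bases, had 2876 reads in replicate 1 and 1553 in replicate 2 (63.5% and 26.5% of the gene). A genomic model of 87 bases had 1646 and 4300 (36.3% and 73.3%). In CPM the annotated model went from 2114 to 1028 (log2 ratio -1.04) while the 87-base model went from 1210 to 2846 (log2 ratio 1.23). The 87-base model held 97.7% of all genomic reads of the members, and the other members had 133 genomic reads in all. The table gives the length of a model and no coordinates, so where the 87 bases lie is not known here.

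**Figure D4:**
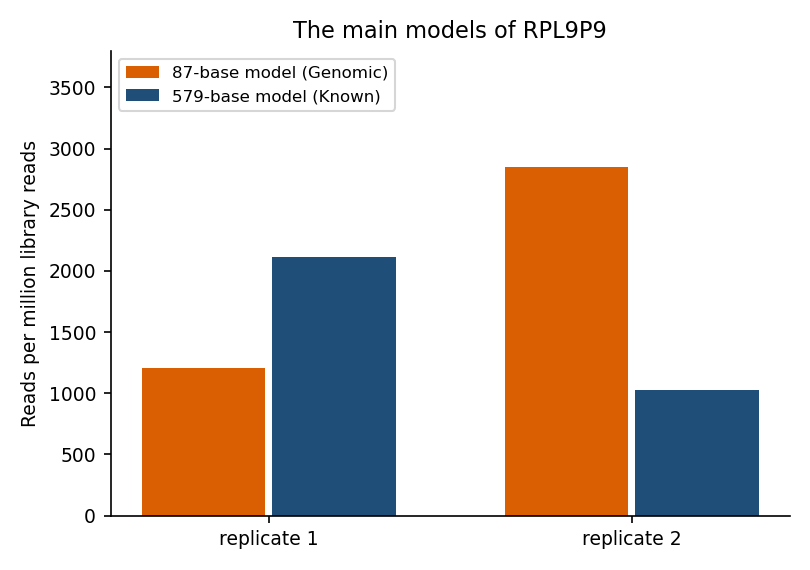
CPM of the 2 main models of RPL9P9 in each library, 1 bar per model and library. The 87-base genomic model (orange) is the lower bar in replicate 1, at 1210, and the higher in replicate 2, at 2846.

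Reads of each gene in the libraries were set against the library totals in an exact binomial test, two-sided, with p-values adjusted by Benjamini-Hochberg over all 10634 annotated genes with at least 10 reads. This compares these 2 libraries, not conditions. The member rule used the sum of both libraries and not their ratio. Log2 ratios are of replicate 2 over replicate 1 after 0.5 reads were added. Of all genes 5.05% passed an adjusted p of 0.05 in either direction, 2.72% higher in replicate 2 and 2.33% lower. Of the 106 members with at least 10 reads, 28 passed (26.4%), all of them higher in replicate 2 and none lower. The categories of reads also differed between the libraries. Over all annotated genes, from replicate 1 to replicate 2, known models held 56.5% and 46.4% of reads, ISM models 24.05% and 32.3%, genomic models 10.9% and 15.3% and models of 1 exon 22.2% and 28.5%. ISM models held 28.5% and 35.7% of parent reads. The part of these differences in the higher counts of members was not tested. In the settings that follow, library totals counted only the models kept, so their ratios are on another scale than those of the main test. From replicate 1 to replicate 2 the known share changed by -10.1 points over all genes and by -4.34 over members. In known models only, 51 of 104 members were higher and 1 lower, where 18.8% of all genes passed (5.86% higher and 13% lower). With genomic models left out, 36 of 105 members were higher and 1 lower, where 8.26% of all genes passed (3.43% higher and 4.83% lower). The lower member was RPL9P9 in both settings. The test allows for counting error only, and the chi-square per gene of 3.27 exceeds what counting error alone gives, so its p-values are too small for libraries that vary more. The power of the test grows with reads, and 26 of these 28 had at least 100 reads. The median log2 ratio was 0.54 over the 106 members and 0.01 over all genes. Of the 106, 91 lay above 0 and 15 below.

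The parents lay on both sides of 0. Of the 59, which mostly have more reads each than their copies, 47.5% passed: 20 were higher and 8 lower in replicate 2, with a median log2 ratio of 0.05 and a range of -0.27 to 0.66. Summed over genes the log2 ratio was 0.23 for members and 0.05 for parents. The log2 ratio of the member was above that of its parent in 86 of 106 cases, with a median difference of 0.45. The 28 members that passed came from 23 parents, and they held 57.8% of the member reads. That share includes the 11.8% of RPL9P9, whose direction reversed with genomic models left out.

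RPL3P4, on chromosome 14 from 98972879 to 98973301 (minus strand), had the smallest p among members. It is a copy of 423 bases from the 3′ end of the coding part of RPL3, which encodes a large subunit protein near the peptidyl transferase centre. It had 159 and 565 reads, a log2 ratio of 1.67 (exact binomial test, adjusted p = 1.42e-42), while RPL3 itself had 5461 and 6565 reads (0.11). RPS3AP6, on chromosome 15 from 59768352 to 59769146 (plus strand), had 508 and 1004 reads, a log2 ratio of 0.83 (exact test, adjusted p = 1.09e-24), beside 6638 and 8288 for RPS3A (0.17). RPL6P27, on chromosome 18 from 6462144 to 6463015 (minus strand), a copy of the large subunit gene RPL6, had 368 and 688 reads and a log2 ratio of 0.75 (exact test, adjusted p = 5.64e-14), and its parent RPL6 went the other way with 4410 and 4478 reads (-0.13). RPS2P5 had 234 and 461 reads (0.83, exact test, adjusted p = 5.69e-11). RPS2P55, of the same parent, had 50 and 165 (1.56). In each of these copies the ratio was larger than that of the parent.

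RPL9P9 was also among the 5 with the smallest p, at 4531 and 5863 reads and a log2 ratio of 0.22 (exact test, adjusted p = 2.31e-12). Its direction depended on the 87-base model: with genomic models left out of all genes, the log2 ratio of RPL9P9 was -0.97 (exact test, adjusted p = 3.37e-103). The highest ratio among those that passed was that of RPS10P3, with 2 and 16 reads (2.57, exact test, adjusted p = 0.0362), and the smallest that of RPL7P9 (0.15). Several leading members did not pass. RPL21P16 had a log2 ratio of -0.00 (exact test, adjusted p = 1), RPL13AP5 of -0.03 (0.727), RPL10P16 with 698 and 746 reads of -0.06 (0.851) and RPSAP58 of 0.08 (0.344). A p above the threshold does not show that the libraries were equal for these genes.

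**Figure D5:**
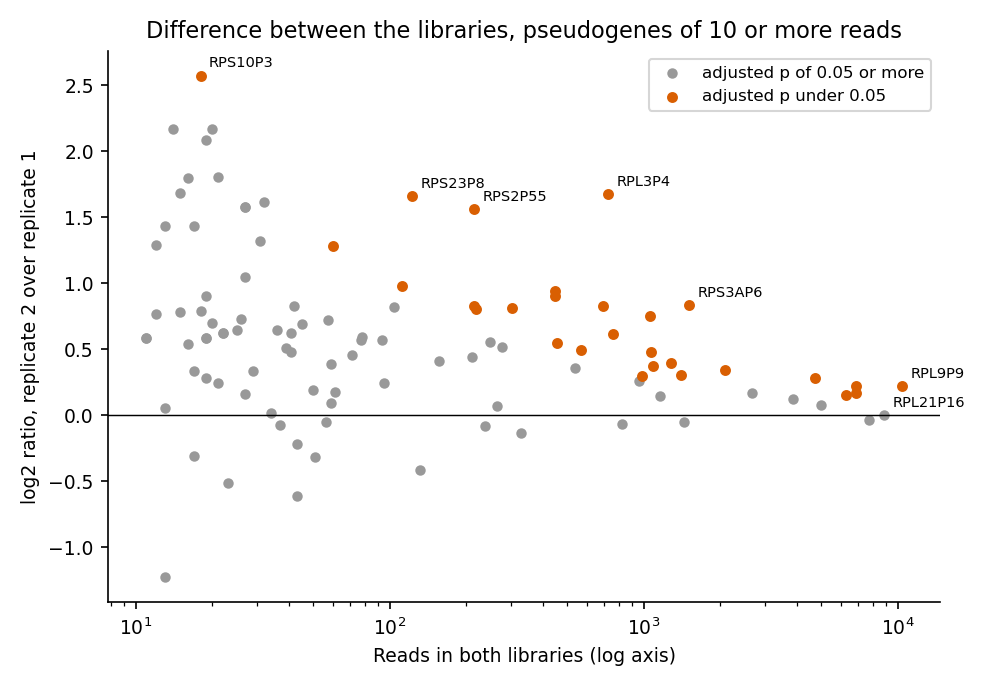
Log2 ratio of replicate 2 over replicate 1 against reads in both libraries (log axis) for the 106 pseudogenes with at least 10 reads; orange points passed the exact binomial test at an adjusted p of 0.05 and grey points did not. All 28 orange points lie above 0, and 15 of the grey points lie below.

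The ratio was lower for copies of short parents. The median log2 ratio was 0.17 for the 13 tested members whose parents have under 300 coding bases, 0.57 for 29 members at 300 to 450, 0.39 for 26 at 450 to 600 and 0.62 for 38 at 600 or more. By identity, it was 0.37 for the 4 tested members at 85 to 90%, 0.57 for the 19 at 90 to 95% and 0.57 for the 28 at 95 to 97.5%. It was 0.61 for the 27 tested members at 97.5 to 99% and 0.29 for the 28 at 99% or more. These are descriptions across genes, and neither feature was tested as a cause.

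The spliced members were of another kind. RPL23AP7, on chromosome 2 from 113610502 to 113627090 (minus strand), and RPL23AP82, on chromosome 22 from 50756948 to 50801309 (plus strand), had an identity to RPL23A of only 88.3% and 88.2%. They had 27 and 29 reads and 25 and 18 reads. Reads in annotated models of 2 or more exons, known or incomplete, numbered 20 for RPL23AP7 and 27 for RPL23AP82, and they were the only members with at least 10. They also led in NIC and NNC reads, with 8 NIC and 19 NNC reads for RPL23AP7. RPL23AP82 had 11 NIC and 2 NNC reads. The next were RPLP0P6 with 9 NNC reads of 758, RPS3AP5 with 5 of 11 and RPL23AP53 with 3 NIC reads of 4. Neither RPL23AP7 nor RPL23AP82 passed the test between libraries or overlapped another gene on its own strand, pseudogenes not counted.

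Overlaps were counted only with genes that are not pseudogenes. No such gene overlapped 128 members on the same strand (80.2% of member reads), 29 lay in an intron of one (16.6%) and 11 overlapped an exon (3.18%). RPL9P7, with 4738 reads, lies in an intron of APOO, which had 71. The reverse held for RPL32P29, at 86.5% identity: its 4 and 17 reads fell on a copy that overlaps an exon of RPS29, a small subunit gene with 8966 reads.

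Pseudogenes of a list of other genes taken as abundant were counted by the same name rule and read minimum. The reads of the listed genes and the number of their annotated pseudogenes were not counted, so the sets are not matched. These pseudogenes numbered 67 and held 0.307% and 0.352% of the library reads, against the 2.82% and 3.30% of the ribosomal protein pseudogenes. Models of 1 exon held 99.1% and 99.4% of their reads. Of 38 tested, 5 were higher in replicate 2 and 0 lower, with a median log2 ratio of 0.27.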

How the data were processed

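Native RNA of GM12878 was sequenced in 2 libraries. The authors deposited a table of raw read counts per transcript model, 1 column per replicate, made with TALON per the file name; the submitters' processing notes name minimap2 and hg38, without versions. How reads fitting several copies were assigned is not given in the sources used here. Per the file headers, the deposited table also holds other model properties (exon number, length, category). All 23533 known models matched GENCODE release 29 (GRCh38) by identifier, exon number and length, so positions and sequences were taken from it.

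Counts were summed per annotated gene. The members, lists and bins were chosen with earlier results of these data known. The named genes are the 20 members of highest mean CPM, the 5 of smallest p, the families and members with more reads than the parent, the spliced members, those of most NIC or NNC reads, and those of highest and lowest identity among members with at least 100 reads. One family and 1 sequence stretch are not reported here, though the family is counted in the sums. Other RPL21, RPL41, RPL7 and RPS26 copies, RPSAP12, RPS10P3, RPS2P55, RPL22P1, RPL39P3 and RPL32P29 were named after their values were seen. The single group leaves no comparison of conditions, and setting 1 library against the other leaves 1 sample per side, so genes with at least 10 reads were compared between libraries by a two-sided exact binomial test (scipy 1.17.1) with Benjamini-Hochberg adjustment, threshold 0.05. Alternatives used TMM factors (edgeR 4.0.16), DESeq2 1.42.0 size factors, other read minimums and other sets of models. Shares have 95% Wilson intervals. Identity came from local alignment with Biopython 1.88 (match 1, mismatch -1, gap opening -3, gap extension -1) to the best-scoring protein-coding transcript of the parent. Depth was 1360368 and 1510998 reads, and 1 read was worth 0.735 and 0.662 CPM.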

Additional observations from a re-analysis of the deposited data

How the results depend on the processing

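No paired analysis was possible because no second group shares the replicate numbers; members and parents were compared within each library. The number of members was 106 with a minimum of 10 reads. Restricted to known models, members held 5.69% of all reads in known models and 19.9% of family reads, and 52 of 104 tested members differed between the libraries (51 higher and 1 lower in replicate 2), beside 18.8% of all genes. That setting moved the median log2 ratio of all genes to -0.26, and leaving out genomic models moved it to -0.08; the median of the members was 0.82 and 0.60 there. The median log2 ratio of members was 0.53 by TMM scaling (0.0006 over all genes) and 0.53 by DESeq2 size factors (-0.0042 over all genes). With genomic models left out, 37 members differed (36 higher, 1 lower) and 8.26% of all genes did (3.43% higher, 4.83% lower). The known share of members minus parents was 36.5 points with genomic models left out. Under that setting the log2 ratio changed sign for RPL10P16 (0.016), RPL13AP5 (0.038), RPL21P16 (0.071) and RPL9P9 (-0.97), and RPL23AP42, RPS7P1 and RPSAP58 passed the threshold; with DESeq2 size factors RPL26P19 did not (exact test, adjusted p = 0.0515).

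Without RPL9P9, members held 2.70% of all reads, the known share was 99.7% and the genomic share 0.171%, with differences from parents of 37.0 and -0.941 points. Without its 87-base model, a setting chosen after seeing the data, these 4 values were 99.7%, 0.173%, 37.0 and -0.939. The median over members with at least 10 reads was 100% for the known share and 0% for the genomic share. The pseudogene share had a median over families of 2.99% as the mean of the medians of each library, and of 2.79% with the libraries pooled. Adding RPS19BP1, also chosen after seeing the data, gave 169 genes. Identity over the whole pseudogene in place of the aligned columns was also chosen after seeing the data. By it, 27 pseudogenes were at 99% or more and held 81.8% of the reads of all annotated pseudogenes. Members with 3 to 9 reads are near the limit of detection.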
